A study of Homo sapiens with 9 samples.

Results

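The HOX genes and EN1 were followed through all 9 libraries of the series, 40 of the 21170 features in the deposited table. They are the 39 rows whose symbol is a HOX gene of cluster A, B, C or D, namely 11 HOXA, 10 HOXB, 9 HOXC and 9 HOXD genes, together with EN1. Rows were picked by symbol, with EN1 added by name, but this choice of members was made with earlier results of these data known. Poly(A) RNA had been sequenced from HaCaT cells, a spontaneously immortalized human keratinocyte line, in 3 groups of 3 libraries. Cells of the Vector group overexpressed an empty vector, cells of the FTO group overexpressed wild-type FTO, and cells of the mut-FTO group overexpressed a mutant FTO whose demethylase activity is disrupted. FTO removes methyl groups from adenosines in RNA. The sources used here do not give the promoter of the vector, the mutation, the number of clones or the time since the constructs were introduced. The labels do not say whether the 3 libraries of a group are separate cultures. The p-values set differences between groups against the scatter of these libraries, and that scatter may be technical.

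HOX genes encode transcription factors that bind DNA through a homeodomain and set position along the body axis. They lie in 4 clusters, on chromosomes 7 (HOXA), 17 (HOXB), 12 (HOXC) and 2 (HOXD), and genes with low numbers act nearer the head than genes with high numbers. Skin cells keep part of the HOX code of the site they come from, and Polycomb and Trithorax complexes hold it off or on. EN1, on chromosome 2 outside the clusters, encodes the homeodomain factor engrailed 1, which marks the ventral ectoderm of the limb bud, where it represses WNT7A, and acts in the formation of sweat glands.

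Libraries held 32222203 to 37846027 counts. FTO itself read 17.0 to 25.8 CPM with Vector, 62.6 to 77.1 with FTO and 49.7 to 82.7 with mut-FTO, where CPM is the usual depth-scaled unit, a count relative to the normalized size of its library. That level tells Vector columns from the rest; which columns are FTO and which are mut-FTO rests on their letters. All 10 of 10 keratinocyte markers were above 1 CPM in at least 1 library, and they summed to 12692 to 15440 CPM with Vector, 14917 to 15511 with FTO and 19442 to 25438 with mut-FTO. Of 10 fibroblast markers THY1 had no count and 6, THY1 among them, stayed below 1 CPM in every library, with sums of 8.21 to 14.1 CPM over the 9 libraries. The pan-leukocyte marker PTPRC and 4 more of 8 leukocyte markers were below 1 CPM throughout, while the list summed to 126 to 157 CPM with Vector, 90.9 to 102 with FTO and 76.3 to 117 with mut-FTO. Melanocyte markers summed to at most 2.65 CPM and endothelial markers to at most 1.73 CPM. The part of these differences in the results below was not tested. Vector replicate 3 stood apart, with 14.97% of its counts in mitochondrially encoded genes against 3.80% to 7.45% elsewhere. It and mut-FTO replicate 2 held 2.50% and 3.17% in assembled loci without a name, against 0.689% to 0.874% in the other 7.

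Of the members, 5 passed the test in at least 1 comparison. The 4 HOX genes among them are shown by their homeoboxes, the 180 coding bases that specify the homeodomain, since this is the stretch found in all 40 members. The sequences come from GENCODE 29 transcripts, 5′ to 3′ in the coding sense, with codons 48 to 53 in capitals, the conserved core of the helix that reads DNA.
HOXC13: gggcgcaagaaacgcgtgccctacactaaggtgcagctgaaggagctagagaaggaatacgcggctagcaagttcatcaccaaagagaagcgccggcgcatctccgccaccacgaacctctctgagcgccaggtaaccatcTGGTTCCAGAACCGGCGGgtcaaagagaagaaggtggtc
HOXC12: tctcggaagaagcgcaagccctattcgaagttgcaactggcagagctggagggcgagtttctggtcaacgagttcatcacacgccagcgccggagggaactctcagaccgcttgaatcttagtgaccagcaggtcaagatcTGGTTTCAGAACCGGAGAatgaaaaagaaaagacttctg
HOXC6: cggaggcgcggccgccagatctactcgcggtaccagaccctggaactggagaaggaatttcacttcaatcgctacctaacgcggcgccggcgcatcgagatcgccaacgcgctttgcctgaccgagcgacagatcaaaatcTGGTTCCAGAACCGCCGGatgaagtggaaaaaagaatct
HOXA2: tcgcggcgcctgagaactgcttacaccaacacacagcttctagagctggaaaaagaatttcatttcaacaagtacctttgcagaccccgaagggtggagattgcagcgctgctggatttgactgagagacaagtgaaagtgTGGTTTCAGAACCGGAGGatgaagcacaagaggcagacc

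The neighbours HOXC12 and HOXC13 had 60.6% identical homeobox bases. HOXC6 was closer to HOXA6 (86.7%) than to HOXA2 (56.7%), HOXC12 (53.9%) or HOXC13 (50.6%). Over whole coding transcripts, the longest exact run that EN1 shared with another member was 25 bases, and it was 20 for HOXC13, 29 for HOXC12 and 24 for HOXA2. HOXC6 and HOXC4 shared a run of 484 bases, exon sequence that GENCODE 29 places in both genes and 305 bases of it in HOXC5 too, so reads from it could be counted for either. In the same annotation, 172 of 2423 exon bases of HOXC13 (7.10%) overlapped its antisense RNA HOXC13-AS, while HOXC12, HOXA2 and EN1 overlapped no other gene. Whether counting used strand is not stated in these sources, so reads of HOXC13 and HOXC13-AS cannot be told apart.

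HaCaT cells expressed most of HOXA and HOXC, a short posterior stretch of HOXD, and little of HOXB. A mean of at least 1 CPM in at least 1 group was reached by 10 of 11 HOXA genes, 1 of 10 HOXB, 7 of 9 HOXC and 3 of 9 HOXD genes, and by EN1 in mut-FTO. By position this was 3 of 8 genes numbered 1 to 3, 7 of 15 numbered 4 to 8 and 11 of 16 numbered 9 to 13. Within cluster A only HOXA13 fell short, with 38 counts in all, and the break came between HOXA11 and HOXA13. In cluster C the low genes were internal, namely HOXC5 and HOXC8, while both ends of the cluster were expressed. Cluster D was expressed from HOXD9 to HOXD11 and ended sharply at HOXD12, which had 9 counts in all 9 libraries together.

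**Figure D1:**
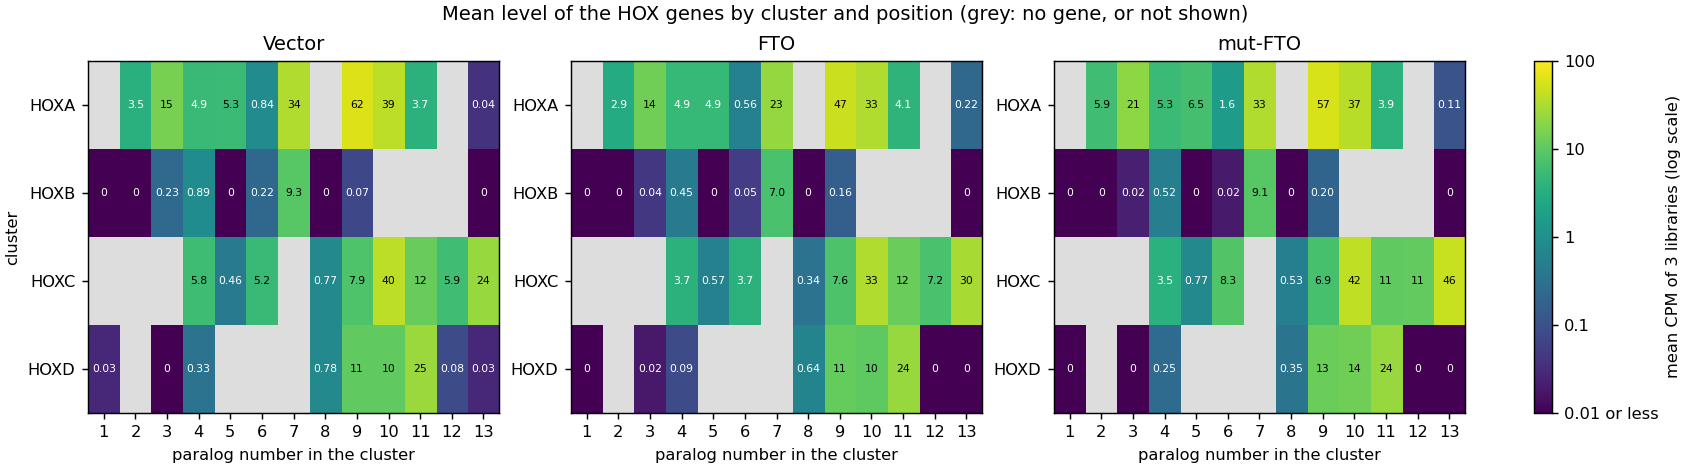
Mean CPM of each HOX gene in Vector, FTO and mut-FTO (3 libraries each), with clusters A to D as rows and paralog numbers 1 to 13 as columns; colour is on a log scale, the printed figure is the mean, and grey marks positions without a gene or not shown. HOXA2 to HOXA11 other than HOXA6, HOXC4, HOXC6, HOXC9 to HOXC13, HOXD9 to HOXD11 and, alone in its cluster, HOXB7 average above 1 CPM in all 3 groups; HOXA6 does so in mut-FTO.

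In all, 5 members had no count in any of the 9 libraries, and all 5 lie in cluster B: HOXB1, HOXB2, HOXB5, HOXB8 and HOXB13. At a total of 316052179 counts, a count of 0 allows up to 0.00949 CPM, counting error only. A further 9 did not pass the filter on low counts, with totals of 2 to 68: HOXD3 (2), HOXD1 and HOXD13 (3 each), HOXD12 (9), HOXB3 and HOXB6 (31 each), HOXA13 (38), HOXB9 (46) and HOXD4 (68). None of these 14 genes averaged more than 0.329 CPM in a group, and the highest such mean was that of HOXD4 in Vector. The 4 members that were tested but stayed below 1 CPM in every group were HOXB4, HOXC5, HOXC8 and HOXD8, with group means from 0.337 to 0.892 CPM. HOXC5 and HOXB4 overlap same-strand neighbours in the annotation, so the origin of so few reads is uncertain. In all, 26 members, these 4 included, passed the filter on low counts and were tested.

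Levels can be compared between genes only per length, here as CPM per kilobase of the longest coding transcript in GENCODE 29. HOXA9 led at 30.2 ± 8.82 CPM per kb with Vector (SD, n = 3, as for all means that follow), 22.8 ± 1.09 with FTO and 27.8 ± 0.863 with mut-FTO. HOXC10 followed at 20.4 ± 5.81, 17.3 ± 0.590 and 21.7 ± 2.92 CPM per kb. Their ranges overlapped in Vector, where both genes were highest in replicate 3. That overlap is between libraries and does not compare the 2 genes within each library. HOXA7, HOXD11 and HOXA10 stood at 15.5 to 16.7 CPM per kb in Vector and did not differ beyond their spread. HOXC13 came after these in Vector at 10.1 ± 0.863 CPM per kb and reached 19.1 ± 2.01 in mut-FTO, within the spread of HOXC10 there. HOXB7 (6.78 ± 0.827), HOXD9 (5.72 ± 1.06), HOXD10 (5.22 ± 0.646) and HOXC9 (5.20 ± 1.497 CPM per kb in Vector) came next. EN1 was at 0.0812 ± 0.0132 CPM per kb in Vector and 0.892 ± 0.286 in mut-FTO, close to the level of HOXA6 in Vector (0.854 ± 0.161). With the shortest coding transcript instead, HOXA9 stayed first and HOXA10 moved from rank 5 to rank 2. Levels may include reads of overlapping antisense RNAs, such as HOXA-AS3 over 62.5% of HOXA7 exon bases.

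The sum over a cluster shows where the HOX reads lie. HOXA genes held 49.9% of all HOX CPM, HOXC genes 32.9%, HOXD genes 14.5% and HOXB genes 2.82%. HOXB7 alone made up 89.8% of cluster B, HOXD11 50.5% of cluster D, HOXC10 34.9% of cluster C and HOXA9 33.3% of cluster A. Summed HOXA CPM was 163, 151 and 221 with Vector, 138, 142 and 144 with FTO, and 175, 183 and 183 with mut-FTO. The 3 FTO libraries were the lowest of the 9, and Vector replicate 3 was the highest. Summed HOXC CPM was 99.8, 89.1 and 116 with Vector, 102, 96.2 and 95.4 with FTO, and 112, 143 and 134 with mut-FTO, so that mut-FTO reached higher but overlapped Vector through Vector replicate 3. Cluster B summed to 10.7 ± 1.503 CPM with Vector, 7.74 ± 0.916 with FTO and 9.82 ± 2.22 with mut-FTO, and cluster D to 47.3 ± 7.34, 46.4 ± 1.36 and 51.4 ± 2.20. These sums were not tested.

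**Figure D2:**
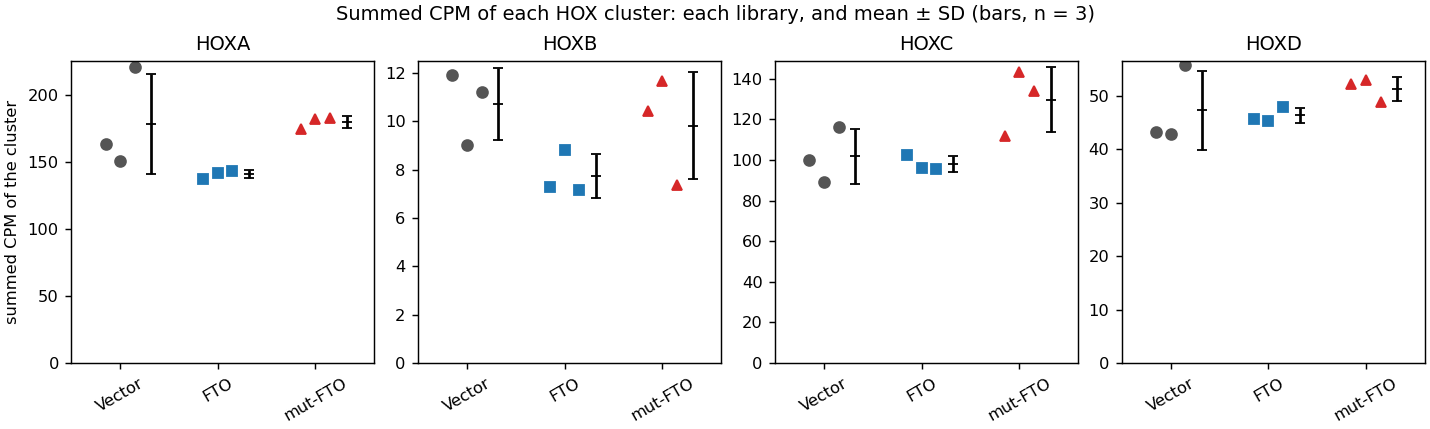
Summed CPM of the HOX genes of each cluster in every library, with the mean ± SD of 3 libraries as black bars; the vertical axis starts at 0 and differs between clusters. FTO libraries sit together at the low end of HOXA, and mut-FTO libraries reach 143 CPM in HOXC.

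EN1 was the member with the largest difference. It was added by name with earlier results of these data known, so this rank and its p-values are not independent evidence. EN1 also passed the filter on low counts only through its mut-FTO libraries. It read 0.234, 0.196 and 0.169 CPM with Vector, 0.425, 0.161 and 0.114 with FTO, and 2.38, 2.78 and 1.42 with mut-FTO. In raw counts these were 8, 7 and 6 reads in Vector, 16, 6 and 4 with FTO, and 88, 82 and 49 with mut-FTO. Every mut-FTO library lay above all 6 others, while Vector and FTO overlapped. In bulk RNA, fewer cells that express a gene and less of its RNA per cell cannot be told apart. EN1 was 10.8-fold higher in mut-FTO than in Vector (log2 fold change 3.43, SE 0.57; adjusted p = 0.0026 by edgeR's quasi-likelihood test and the Benjamini-Hochberg method). It was 9.21-fold higher in mut-FTO than in FTO (log2 of FTO against mut-FTO −3.20, SE 0.56; adjusted p = 0.0107, same edgeR test). Without FTO replicate 1, which holds 16 of the FTO reads, that log2 value was −3.95. Between FTO and Vector the estimate was 0.23 with an SE of 0.60, an error wider than the estimate itself. Leaving out single libraries never ended the call against Vector (highest edgeR adjusted p = 0.0192). Against FTO it was lost without FTO replicate 2, FTO replicate 3 or mut-FTO replicate 2 (edgeR adjusted p = 0.0574 to 0.0714). EN2, the paralog of EN1, had no count in any library.

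**Figure D3:**
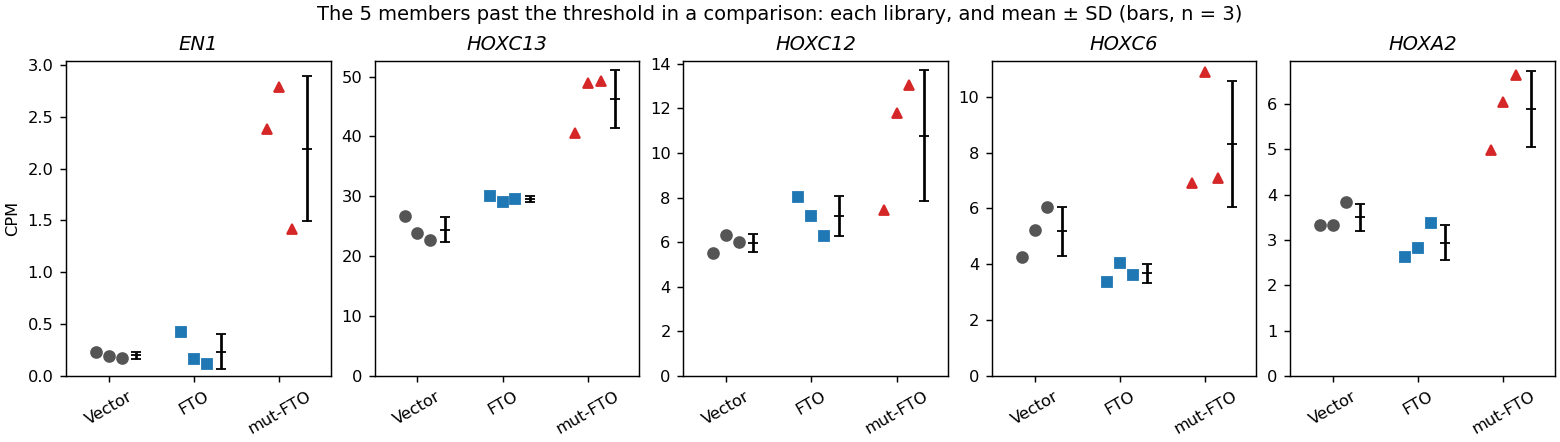
CPM of the 5 members past the threshold in at least 1 comparison, each library as a point and the mean ± SD of 3 libraries as a black bar, each panel on its own axis from 0. In EN1, HOXC13, HOXC6 and HOXA2 all mut-FTO libraries lie above all others; in HOXC12 mut-FTO replicate 1, at 7.46 CPM, lies within the FTO range.

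HOXC13 and HOXC12, the last genes of cluster C, were called higher in mut-FTO than in Vector, and the call of HOXC12 depended on the processing. HOXC13, a regulator of hair and nail keratin genes, read 26.8, 23.9 and 22.7 CPM with Vector, 30.1, 29.1 and 29.5 with FTO, and 40.7, 48.9 and 49.3 with mut-FTO. The 3 groups formed separate ranges in that order. HOXC13 was 1.89-fold higher in mut-FTO than in Vector (log2 0.92, SE 0.16; adjusted p = 0.00324, edgeR quasi-likelihood test). Against FTO it was 1.57-fold higher in mut-FTO, which did not pass (adjusted p = 0.0562) but did with DESeq2, with only the 6 samples compared, without both libraries that stood apart and without Vector replicate 3 (lowest adjusted p = 0.00222). Between FTO and Vector the log2 difference was 0.27 (SE 0.16; adjusted p = 0.517). HOXC12, its neighbour, which is active in hair follicles like HOXC13, read 5.52, 6.32 and 6.01 CPM with Vector, 8.05, 7.19 and 6.29 with FTO, and 7.46, 11.8 and 13.1 with mut-FTO. All mut-FTO libraries were above all Vector libraries, with replicate 1 nearest. The rise over Vector was 1.81-fold (log2 0.86, SE 0.23; edgeR adjusted p = 0.0438). The HOXC13 call held with any library left out (highest adjusted p = 0.0248). That of HOXC12 held only without Vector replicate 3 or mut-FTO replicate 1, and was lost on leaving out any 1 of the other 7 (adjusted p = 0.0709 to 0.193), in limma-voom (0.0632), with library size alone (0.0639) and with only the 6 samples compared (0.127).

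The next genes of the cluster, HOXC11, HOXC10 and HOXC9, did not pass in any comparison. HOXC11 read 13.997, 12.9 and 8.49 CPM with Vector, 12.8, 11.3 and 11.9 with FTO, and 10.1, 9.74 and 12.1 with mut-FTO, and the groups overlapped. HOXC10, the second most abundant member per length, read 37.5, 29.4 and 51.6 CPM with Vector, 34.8, 32.8 and 32.8 with FTO, and 36.5, 47.8 and 41.7 with mut-FTO. Its 3 Vector libraries spanned both other groups. HOXC9 read 7.22, 6.01 and 10.4 CPM with Vector, 8.08, 7.75 and 6.95 with FTO, and 6.68, 9.10 and 4.998 with mut-FTO, again with overlap. For HOXC11, HOXC10 and HOXC9 the log2 difference between mut-FTO and Vector was −0.15, 0.088 and −0.19, each smaller than its SE of 0.21, 0.20 and 0.27.

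HOXC6 passed in FTO against mut-FTO, and HOXC4, with which it shares exon sequence, in no comparison. HOXC6, which acts in the trunk, read 4.27, 5.23 and 6.03 CPM with Vector, 3.37, 4.05 and 3.61 with FTO, and 6.92, 10.9 and 7.08 with mut-FTO. The ranges did not overlap, with FTO lowest and mut-FTO highest. HOXC6 was 2.25-fold lower with FTO than with mut-FTO (log2 −1.17, SE 0.25; edgeR adjusted p = 0.0289), a call that was lost on leaving out any 1 FTO library or mut-FTO replicate 2 or 3 (0.0719 to 0.155). Against Vector, neither the value in mut-FTO (log2 0.68, SE 0.25; adjusted p = 0.123) nor that in FTO (−0.49, SE 0.25; adjusted p = 0.454) passed edgeR's threshold, though mut-FTO did without Vector replicate 3 (adjusted p = 0.0449). HOXC4 read 3.45, 4.59 and 9.28 CPM with Vector, 4.78, 3.17 and 3.06 with FTO, and 2.87, 3.94 and 3.78 with mut-FTO. Its log2 difference between mut-FTO and Vector was −0.71 (SE 0.35; adjusted p = 0.274), and the Vector mean rests on replicate 3.

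In cluster A, HOXA2 was the gene that passed a test, in FTO against mut-FTO. HOXA2, known from the patterning of the hindbrain and the second pharyngeal arch, read 3.33, 3.33 and 3.84 CPM with Vector, 2.63, 2.82 and 3.38 with FTO, and 4.97, 6.04 and 6.65 with mut-FTO. All mut-FTO libraries exceeded the other 6, and Vector and FTO overlapped. HOXA2 was 2.001-fold lower with FTO than with mut-FTO (log2 −1.001, SE 0.23; edgeR adjusted p = 0.0447). This call was lost without Vector replicate 2, any FTO library, or mut-FTO replicate 2 or 3 (adjusted p = 0.0715 to 0.218). Against Vector the mut-FTO value was 1.68-fold higher, short of the threshold (adjusted p = 0.0699), which it passed with DESeq2 and without Vector replicate 3 (lowest adjusted p = 0.0248). HOXA3, its neighbour, read 14.1, 14.01 and 17.3 CPM with Vector, 13.4, 14.97 and 12.4 with FTO, and 18.8, 23.6 and 19.5 with mut-FTO. Here too all mut-FTO libraries were above the rest, at an adjusted p of 0.168 against Vector and 0.121 against FTO in edgeR. Without Vector replicate 3 HOXA3 passed against both, and against FTO it also passed with DESeq2, with only the 6 samples compared and without both libraries that stood apart (lowest adjusted p = 0.0302 against Vector and 0.0104 against FTO). HOXA6, the least abundant HOXA gene tested, read 0.818, 0.699 and 1.02 CPM with Vector, 0.345, 0.858 and 0.486 with FTO, and 1.78, 1.22 and 1.65 with mut-FTO. It showed the same order of groups without passing (adjusted p = 0.271 against Vector and 0.130 against FTO), except with DESeq2 against FTO (adjusted p = 0.0361). In the annotation, 39.3% of HOXA6 exon bases overlap the antisense RNA HOXA-AS3, whose reads cannot be told apart from those of HOXA6 here. HOXA3 exon bases overlap the antisense HOXA-AS2 (8.69%) and HOXA-AS3 (6.69%). On the same strand they overlap AC004080.6 (8.78%) and AC004080.5 (6.83%).

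Promoter sequence was at hand for 20 of the 40 members in RefSeq (GRCh38.p14), 27 windows in all, each from 250 bases before to 50 after a transcript start. Of the members past the threshold only HOXA2 was among them, so its window is printed, at chr7:27102634-27102933 on the minus strand, 5′ to 3′. Capitals mark a match to TGATTNAT, the composite site at which PBX and HOX proteins bind side by side, found on the opposite strand and lying 114 to 107 bases before the start.
HOXA2 promoter: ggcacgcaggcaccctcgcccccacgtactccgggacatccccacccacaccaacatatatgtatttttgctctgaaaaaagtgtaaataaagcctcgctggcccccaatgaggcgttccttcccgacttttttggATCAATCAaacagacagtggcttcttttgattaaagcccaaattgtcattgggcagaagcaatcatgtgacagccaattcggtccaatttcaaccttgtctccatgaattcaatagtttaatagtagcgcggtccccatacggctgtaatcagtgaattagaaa
Both strands were searched. Such a match was in 2 of the 27 member windows, those of HOXA2 and HOXD11, and in 2.82% of 35116 promoters. TAATTA, the core of many homeodomain sites (4.84% of promoters), and TATAAA (11.5%) were not in the HOXA2 window. It held 11 CG dinucleotides, where the median promoter holds 14. A match is a description of letters and not a bound site.

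The abundant HOXA7, HOXA9 and HOXA10, and the less abundant HOXA4, HOXA5 and HOXA11, did not pass in any comparison by edgeR over all 9 libraries. HOXA7 passed in FTO against mut-FTO with only the 6 samples compared and without Vector replicate 3 (lowest edgeR adjusted p = 0.0163). HOXA9 read 52.1, 51.4 and 83.2 CPM with Vector, 46.5, 45.0 and 49.4 with FTO, and 59.2, 56.6 and 55.8 with mut-FTO. HOXA7 read 29.3, 27.9 and 43.7 CPM with Vector, 23.0, 24.5 and 22.3 with FTO, and 28.3, 36.3 and 34.7 with mut-FTO. In both, every FTO library was below the other 6, and Vector replicate 3 was the highest of the 9. HOXA10 read 40.4, 34.2 and 43.5 CPM with Vector, 30.2, 33.3 and 36.7 with FTO, and 38.1, 35.2 and 36.8 with mut-FTO, with overlap of all groups. HOXA11, which patterns the forearm and lower leg, read 5.20, 3.27 and 2.62 CPM with Vector, 3.72, 3.67 and 4.81 with FTO, and 4.43, 2.78 and 4.48 with mut-FTO. The groups overlapped. HOXA4 read 4.30, 3.41 and 6.91 CPM with Vector, 4.28, 6.09 and 4.23 with FTO, and 4.33, 6.18 and 5.49 with mut-FTO. HOXA5 read 5.67, 4.89 and 5.36 CPM with Vector, 6.24, 5.45 and 2.89 with FTO, and 6.49, 5.23 and 7.83 with mut-FTO. Neither of these 2 separated any pair of groups. In the annotation, the antisense RNA HOXA-AS3 overlaps 62.5% of HOXA7 exon bases, and HOXA11-AS overlaps 31.1% of those of HOXA11. HOXA10-AS overlaps 16.4% of HOXA10 and 13.9% of HOXA9, and HOXA-AS2 overlaps 14.5% of HOXA4. Reads of these antisense RNAs cannot be told apart from those of the HOXA genes here. On the same strand, AC004080.6 overlaps 31.0% of HOXA4 exon bases, and AC004080.3 overlaps 13.1% of HOXA9 and 9.93% of HOXA10.

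HOXB7 was the only well expressed gene of its cluster, and HOXD9, HOXD10 and HOXD11 of theirs. HOXB7 read 10.4, 8.17 and 9.31 CPM with Vector, 6.40, 7.89 and 6.81 with FTO, and 9.27, 11.03 and 6.88 with mut-FTO. FTO lay below Vector in every library but overlapped mut-FTO. HOXD10 read 9.64, 9.65 and 11.9 CPM with Vector, 9.46, 10.6 and 10.7 with FTO, and 14.3, 12.8 and 13.8 with mut-FTO. All mut-FTO libraries were the highest, at a log2 difference of 0.39 from Vector (SE 0.18; edgeR adjusted p = 0.232). HOXD9 read 12.01, 11.7 and 8.43 CPM with Vector, 10.3, 12.4 and 11.8 with FTO, and 12.3, 14.2 and 11.8 with mut-FTO. HOXD11 read 20.6, 19.97 and 34.3 CPM with Vector, 25.6, 21.7 and 24.3 with FTO, and 24.98, 25.3 and 22.97 with mut-FTO. These 2 overlapped between all groups, and the exons of HOXD10 and HOXD11 overlap by 452 bases in the annotation. HOXD8, below 1 CPM in every group, read 0.643, 0.895 and 0.790 CPM with Vector, 0.425, 0.697 and 0.801 with FTO, and 0.514, 0.238 and 0.289 with mut-FTO. Its mut-FTO libraries were all below Vector, with a log2 difference of −1.14 (SE 0.54; edgeR adjusted p = 0.245).

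**Figure D4:**
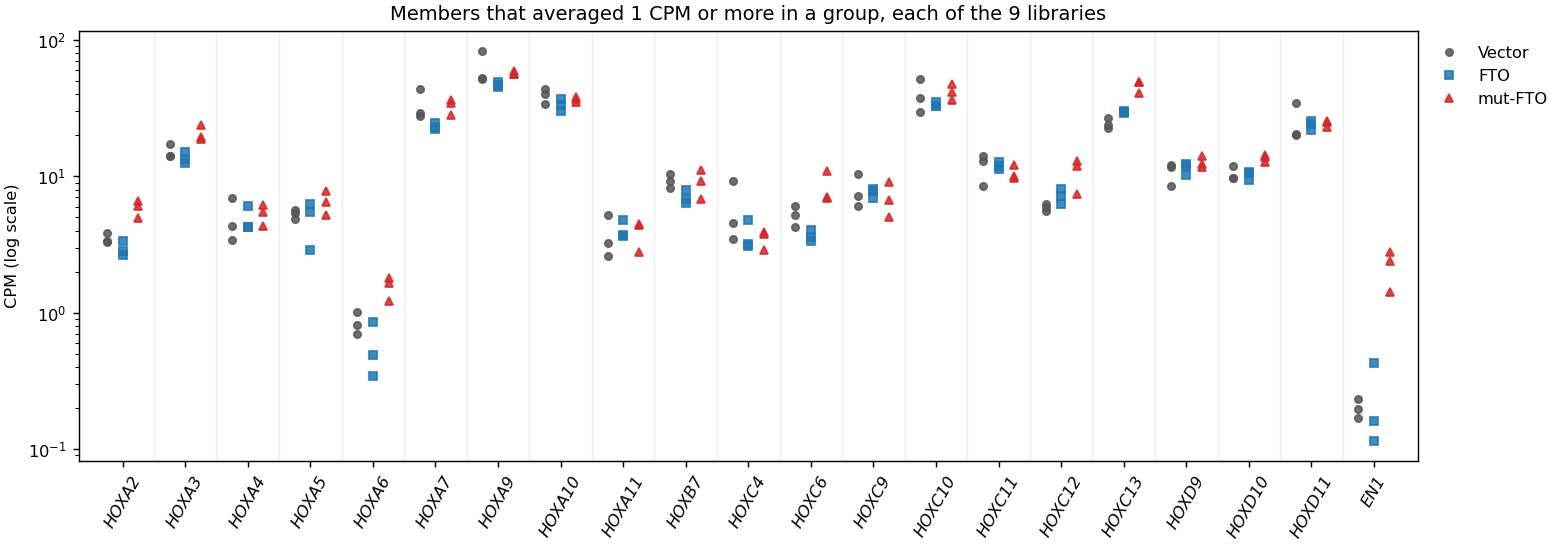
CPM on a log axis of 21 of the 22 members that averaged 1 CPM or more in a group, in cluster order with EN1 last; each point is 1 library, coloured by group. The groups lie close together for most HOX genes, from about 1 CPM for HOXA6 to 83.2 CPM for HOXA9 in Vector replicate 3, and EN1 shows the widest gap.

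Counted over the 26 tested members, mut-FTO against Vector gave 3 rises (EN1, HOXC12, HOXC13), no fall and 23 genes that did not pass. That is 11.5% of members, where 7.78% of all 13713 tested genes were called, 3.27% higher and 4.51% lower. Among the 25 HOX genes alone, 2 were called, or 8.0%, near the share of all genes. EN1 passed the filter on low counts only through its mut-FTO libraries, so a call of EN1 could only be a rise there. The libraries of both groups did not overlap in 9 members, 8 higher and 1 lower in mut-FTO, or 34.6% against a background of 24.0%. The median log2 difference of the members was 0.083, against −0.0012 over all tested genes. Without Vector replicate 3, the call extended to 6 members with HOXA2, HOXA3 and HOXC6 added, while 2089 of 13953 genes were called. Without both libraries that stood apart, Vector replicate 3 and mut-FTO replicate 2, the 3 members called were the same ones, but 17.3% of all genes were called then, a larger share than the 11.5% of members.

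FTO against Vector called none of the 26 members in edgeR, where the background was 0.744% of all genes (0.306% higher and 0.438% lower). An unadjusted p below 0.05 was found for 2 members, HOXA7 among them (11.9% of all genes had one), and neither DESeq2, which called 2.67% of all genes, nor limma-voom called a member. Without Vector replicate 3 (3.41% of all genes called), and without both libraries that stood apart (7.55%), no member was called either. The estimates lay below 0 for 19 members and above 0 for 7, with a median log2 difference of −0.19 against −0.0020 over all genes. HOXA7 was 1.44-fold lower (adjusted p = 0.319) and HOXA9 1.33-fold lower (0.428) in FTO by edgeR. Their Vector means rest partly on replicate 3, which was the highest of all 9 libraries in 11 of 26 members, against 27.8% of all tested genes, and the lowest in 4. No FTO library was the highest in any tested member. Over all tested genes FTO replicates 1, 2 and 3 were the highest in 5.02%, 3.78% and 8.61%. Libraries did not overlap in 6 members, 1 higher and 5 lower, or 23.1% against 21.0% of all genes.

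FTO against mut-FTO called 3 members lower in FTO (EN1, HOXA2, HOXC6), none higher, and 23 did not pass. The share of 11.5% compares with 2.33% of all tested genes, 1.2% higher and 1.13% lower with FTO. Among the 25 HOX genes alone, without EN1, 8.0% were called and 40.0% had libraries that did not overlap. EN1 passed the filter on low counts only through mut-FTO, so here too its direction was fixed. It could be called, or stand apart, only as lower in FTO. DESeq2 called 6 members (5.48% of all genes), and 5 were called without both libraries that stood apart (8.6%). This count rests on single libraries: it was 0 without FTO replicate 2, FTO replicate 3 or mut-FTO replicate 2, 1 without FTO replicate 1 or mut-FTO replicate 3, and 6 without Vector replicate 3, where 10.2% of all genes were called. In all 11 members whose libraries did not overlap, FTO was the lower group, 42.3% of members against 3979 of 13713 genes in either direction and 14.2% with FTO lower. Of these, 6 were HOXA genes, HOXA2, HOXA3, HOXA6, HOXA7 and HOXA9 among them, and the others were HOXC6, HOXC10, HOXC13, HOXD10 and EN1. The members' median log2 difference was −0.39, against 0.0046 over all genes, and −0.34 with library size alone. Since the 3 comparisons share libraries, they are not independent of each other.

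**Figure D5:**
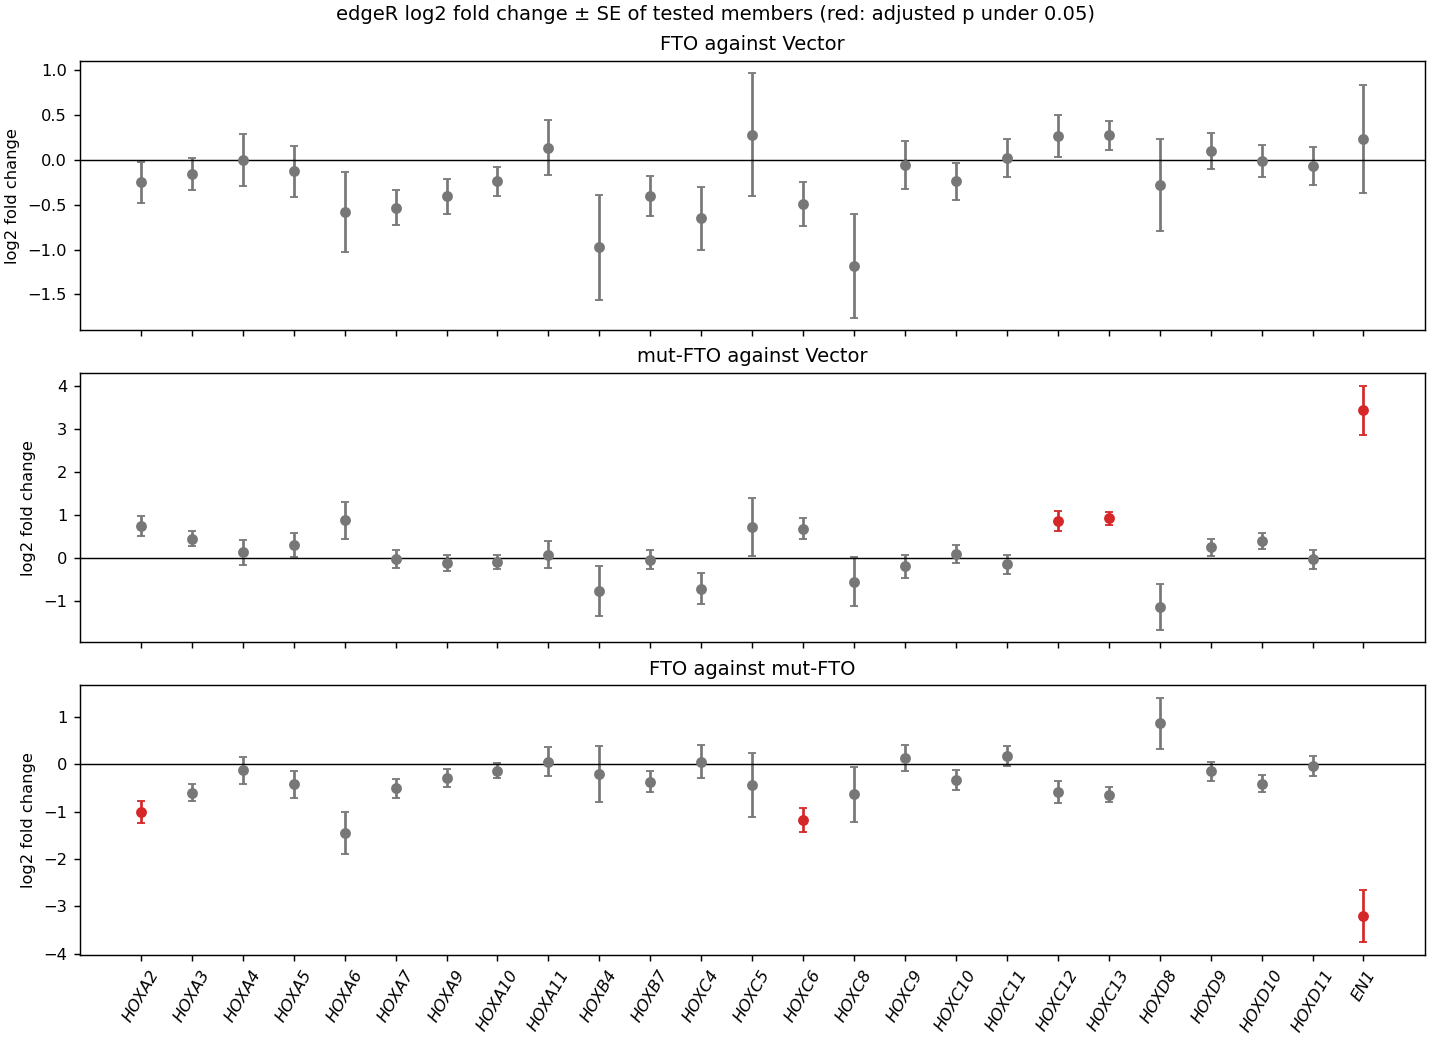
edgeR log2 fold changes of 25 of the 26 tested members in the 3 comparisons, in cluster order with EN1 last; bars are ± 1 SE and red marks an adjusted p below 0.05. EN1, HOXC12 and HOXC13 are red for mut-FTO against Vector, no member is for FTO against Vector, and EN1, HOXA2 and HOXC6 are for FTO against mut-FTO.

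Homeobox genes of patterning outside the HOX clusters rose in mut-FTO in 7 of 21 tested cases of a list of 45, and none fell; over all tested genes 3.27% were called higher, and the list's median log2 difference was 0.28. They were DLX2, DLX3, DLX5, DLX6, IRX3, MSX2 and PITX1. DLX6, at most 0.239 CPM in any Vector or FTO library, passed the filter on low counts only through mut-FTO. It could therefore be called only as a rise. DLX5, a distal-less factor of limb and craniofacial development, read 0.175, 0.168 and 0.451 CPM with Vector, 0.770, 0.912 and 2.09 with FTO, and 3.24, 4.92 and 5.06 with mut-FTO. The groups were fully separate and ascended from Vector to mut-FTO. DLX5 was 16.4-fold higher in mut-FTO than in Vector (log2 4.04, SE 0.51; edgeR adjusted p = 0.000423). DLX3, a regulator of late epidermal differentiation, read 3.71 ± 0.366 CPM with Vector, 3.04 ± 0.308 with FTO and 10.1 ± 0.537 with mut-FTO (2.73-fold over Vector, adjusted p = 0.000911). MSX2 (2.34-fold, adjusted p = 0.00516) and DLX2 (2.59-fold, adjusted p = 0.00522) rose as well in edgeR. DLX3 and MSX2 were also lower in FTO than in mut-FTO, whereas FTO against Vector called none of the 21. The MSX2 call against mut-FTO (adjusted p = 0.0445) was lost in 9 of 19 alternatives. Against Vector, the calls of DLX5, DLX3, MSX2 and DLX2 were lost in none of the 19, that of PITX1 in 4, that of DLX6 in 9 and that of IRX3 in 10. DLX6 and IRX3 were each lost on leaving out Vector replicate 2, FTO replicate 1 or 2, or any 1 mut-FTO library, DLX6 also without Vector replicate 1 and IRX3 also without FTO replicate 3.

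Among genes of limb and body-site identity, 1 of 9 tested rose and 1 fell in mut-FTO against Vector. Of all tested genes, 3.27% were called higher there and 4.51% lower. PITX1, a hindlimb factor also counted among the 7 homeobox genes above, was 2.16-fold higher, at 132 ± 18.98 against 61.4 ± 25.5 CPM (edgeR adjusted p = 0.0255). Its Vector libraries read 74.3, 77.8 and 32.1 CPM, so the Vector mean rests partly on replicate 3. TBX3 was 1.84-fold lower, at 8.35 ± 1.40 against 15.3 ± 2.31 CPM (adjusted p = 0.0163). Both lost their call without mut-FTO replicate 1 or 2, and PITX1 also without mut-FTO replicate 3. WNT7A, which EN1 represses in limb ectoderm and which is named here after its values were seen, stood at 28.2 ± 9.63 CPM with Vector, 28.1 ± 2.34 with FTO and 16.6 ± 2.72 with mut-FTO. It did not pass against Vector (log2 −0.76, SE 0.25; edgeR adjusted p = 0.0851) or against FTO (adjusted p = 0.156). KRT9, the keratin of palm and sole and also picked by hand from the list, did not pass either. It stood at 1.78 ± 0.296 CPM in Vector and 2.43 ± 0.551 in mut-FTO.

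Of 30 Polycomb genes, all tested, 2 rose and 1 fell in mut-FTO against Vector, a share near the 7.78% of all tested genes called: RBBP7, a histone-binding subunit, was 1.74-fold lower (adjusted p = 0.00724, edgeR, in all 19 alternatives too), CBX6 1.94-fold higher (0.0319) and CBX7 2.70-fold higher (0.0438). The CBX6 and CBX7 calls were each lost on leaving out Vector replicate 2 or any 1 FTO or mut-FTO library. In Vector, CBX6 read 14.3, 12.7 and 6.94 CPM and CBX7 read 2.51, 1.48 and 0.846 CPM, both lowest in replicate 3. Of 17 Trithorax genes and H3K27 demethylases only KDM6A passed there, where 7.78% of all tested genes were called. KDM6A was 2.30-fold lower in mut-FTO at 9.44 ± 0.316 against 21.7 ± 9.38 CPM (edgeR adjusted p = 0.0134). Its Vector libraries read 14.4, 18.4 and 32.3 CPM, so the Vector mean rests partly on replicate 3. On leaving out any 1 mut-FTO library KDM6A did not pass. KDM6A removes methyl groups from lysine 27 of histone H3, the mark set by EZH2. FTO against Vector called none of either list by edgeR, and RBBP7 alone passed in FTO against mut-FTO (1.68-fold higher with FTO, adjusted p = 0.0257), a call lost on leaving out any 1 FTO or mut-FTO library.

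In retinoic acid signalling, which induces HOX genes in embryos and cultured cells, 2 of 12 tested genes rose in mut-FTO against Vector. Of all tested genes, 3.27% were called higher in that comparison. ALDH1A1, an enzyme that makes retinoic acid, read 0.497, 0.419 and 0.338 CPM with Vector, 1.22, 2.12 and 2.37 with FTO, and 4.08, 4.11 and 5.32 with mut-FTO. The 3 groups were separate. It was 10.7-fold higher in mut-FTO (edgeR adjusted p = 9.84e-05) and 4.53-fold higher in FTO (adjusted p = 0.0121, lost without Vector replicate 2, FTO replicate 2 or FTO replicate 3) than in Vector. CRABP2, which carries retinoic acid to the nucleus, was 2.01-fold higher in mut-FTO (edgeR adjusted p = 0.00694). ALDH1A3, of the same family as ALDH1A1 and named here after its values were seen, was far more abundant. It stood at 473 ± 46.4 CPM with Vector, 548 ± 64.5 with FTO and 447 ± 38.2 with mut-FTO, and passed in no comparison. Genes flanking the HOX clusters were tested in 12 of 20 cases. Of all tested genes, 0.744% were called in FTO against Vector and 7.78% in mut-FTO against Vector. Among the 12, JAZF1 alone passed. It lies beyond HOXA and was lower than Vector in both FTO (3.85-fold, edgeR adjusted p = 0.0238) and mut-FTO (2.49-fold, adjusted p = 0.0323). Those calls were lost on leaving out any 1 FTO library or mut-FTO replicate 2 in the former comparison, and on leaving out Vector replicate 3, FTO replicate 1 or 3, or any 1 mut-FTO library in the latter. EVX2 and PRAC1, which lie beside HOXD13 and HOXB13, had no count, and EVX1, beyond HOXA13, had 6 in all. Of 21 noncoding or read-through RNAs of the HOX clusters only the read-through HOXA10-HOXA9 had a row, with no count, and the rest are not analysed here.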

How the data were processed

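The authors deposited raw counts per gene. HISAT2 and StringTie are the tools named, per the submitters' processing notes, and the build named there is mm10 (mouse), while cells and symbols are human. No source used here gives program versions, the counter, whether strand was used, or gene models. Columns were matched to the groups and replicate numbers by their letters and digits, and all were used.

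Members and lists were chosen with earlier results of these data known. Genes were kept by filterByExpr (minimum count 10, minimum total 15), which left 13713, and scaled by TMM. All 9 libraries entered 1 edgeR 4.0.16 model (R 4.3.3) with a term per group. Robust quasi-likelihood tests gave p-values, adjusted by the Benjamini-Hochberg method over all tested genes, with a threshold of 0.05. The SE is the log2 fold change divided by the square root of F. The script was tested on simulated data. Values are given for members past the threshold or at 1 CPM or more in a group, and for EN1. Of each list they are given for at most 4 genes per comparison, by lowest p. Outside this rule are HOXD8, KRT9, WNT7A, ALDH1A3, the low level of DLX6, and genes given only by a count or by name. Alternatives were RLE, library size alone, DESeq2 1.42.0, limma-voom (limma 3.58.1), no filter, a mean of 10 counts, 6 samples, a replicate block, no assembled or mitochondrial features, no doubted libraries, and each library left out. No pair of libraries matched within counting error (lowest chi-square per degree of freedom 12.95). Depth ranged from 32222203 to 37846027 counts. Transcript lengths, exons and homeoboxes came from GENCODE 29 (GRCh38) and promoters from RefSeq GRCh38.p14. Homeoboxes were located by their conserved codons, 47 codons before and 7 after these. Some genes and sequences are not reported here.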

Additional observations from a re-analysis of the deposited data

How the results depend on the processing

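The number of members called in mut-FTO against Vector was 3, and 2 to 6 with 1 library left out. In FTO against mut-FTO it was 3, and 0 to 6 with 1 library left out, 6 with DESeq2, 6 with only the 6 samples compared and 5 without both libraries that stood apart. FTO against Vector called 0 members under all 19 alternatives. Every called member kept its direction in every alternative run. The same-numbered libraries of different groups correlated at −0.127 to 0.106 in their deviations from the group means. Libraries with different numbers correlated at −0.116 to 0.151. No pairing by number was detected, but with 3 libraries per group this cannot exclude one. With the replicate block, 2 members were called in mut-FTO against Vector, 2 in FTO against mut-FTO and 0 in FTO against Vector; HOXC12 (adjusted p = 0.0828) and HOXA2 (0.0805) were not among them. HOXA2 also missed the threshold with library size alone (0.0561) and without a filter (0.0552). The summed CPM of HOXA in mut-FTO was 175.4 with library size alone. Of the 40 members, 22 reached 1 CPM in a group and 26 reached 0.5 CPM. The 9 members with totals of 2 to 68 counts did not pass the filter; without a filter they were tested and none of them was called. EN1 rests on 4 to 16 reads per library outside mut-FTO.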
